A study of Mus musculus with 12 samples.

Results

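Retinoid metabolism was described through 7 genes of vitamin A handling in mouse liver: Cyp26a1, Aldh1a1, Aldh1a7, Rbp4, Lrat, Dhrs3 and Rarb. A probe set belonged to the group when the platform annotation paired it with exactly 1 symbol and that symbol was 1 of these 7. The rule found 7 of the 22626 probe sets tested, 1 for each gene: 1419430_at (Cyp26a1), 1416468_at (Aldh1a1), 1418601_at (Aldh1a7), 1426225_at (Rbp4), 1421345_at (Lrat), 1448390_a_at (Dhrs3) and 1454906_at (Rarb). Total RNA of whole liver from male mice aged 6 to 8 weeks, with C57BL/6 as the strain label throughout, was hybridised to 12 Affymetrix 430A arrays. The 4 groups were wild type on the control diet, wild type on quercetin, POR-null on the control diet and POR-null on quercetin. Each group had 3 arrays, and each array carried RNA pooled from 3 mice. POR is cytochrome P450 reductase, which passes electrons to the microsomal cytochromes P450, and quercetin is a plant flavonol. All mice first ate a powdered diet without soya for 14 days, and the quercetin groups then received the same diet with 6.2 g quercetin per kg, also stated as 7 mg per mouse, for 24 h. The labels name neither the null allele nor a promoter or recombinase behind it. Loss of POR and any difference in strain background cannot be told apart here. Por itself was not analysed here, and the genotype labels therefore have no check from the disrupted gene.

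The liver takes up dietary vitamin A, stores it as retinyl esters and releases retinol into the blood bound to a carrier protein. Inside cells retinol is oxidised to retinal and then, irreversibly, to retinoic acid, the ligand of the RAR nuclear receptors. Retinoic acid is cleared by CYP26 hydroxylases, which are microsomal cytochromes P450 and draw their electrons from POR. Cyp26a1 and Rarb are classic retinoic acid target genes: an RAR and RXR pair binds a direct repeat of a half-site with 5 bases between the copies, called DR5, near their start sites. They need not be the only members that respond to retinoic acid. Others, among them Dhrs3 and Lrat, may respond as well, and neither of those passed the genotype test below.

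The promoter sequences of Cyp26a1 and Rarb are shown because the paired half-sites lie directly before the start. They were taken from RefSeq (build GRCm38.p6), which held at least 1 start window for all 7 genes. For Cyp26a1 the 250 bases before the start are chr19:37697558-37697807 on the plus strand, and for Rarb chr14:16575477-16575726 on the minus strand. Both are printed 5′ to 3′ in the direction of the gene, with the DR5 match in capitals.
Cyp26a1: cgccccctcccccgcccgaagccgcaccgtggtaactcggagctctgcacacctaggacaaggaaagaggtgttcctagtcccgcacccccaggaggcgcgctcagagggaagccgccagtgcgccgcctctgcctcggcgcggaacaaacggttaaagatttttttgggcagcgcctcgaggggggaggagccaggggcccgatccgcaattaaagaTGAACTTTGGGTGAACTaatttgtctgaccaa
Rarb: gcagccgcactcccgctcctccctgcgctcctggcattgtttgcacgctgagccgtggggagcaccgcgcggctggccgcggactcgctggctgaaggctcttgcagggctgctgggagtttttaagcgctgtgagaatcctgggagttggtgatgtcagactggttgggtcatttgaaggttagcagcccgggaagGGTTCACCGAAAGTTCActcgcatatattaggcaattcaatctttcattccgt
The half-site searched was AGGTCA or the variant spelled AGTTCA or the variant spelled GGGTCA or the variant spelled GGTTCA, with both copies in the same orientation and 5 bases between them, on both strands of windows running from 250 bases before to 50 bases after each start. In Cyp26a1 the match lay at -32 to -16 from the start on the opposite strand, where it reads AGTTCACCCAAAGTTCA. In Rarb it lay at -53 to -37 and reads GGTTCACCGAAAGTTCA. The windows of the other 5 genes held none of these letters, and no window of the 7 genes held the same half-sites with 2 or 4 bases between them. Of all 32851 RefSeq windows, 32 (0.0974%) held a DR5 match.

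A second pair of sequences is shown because Aldh1a1 and Aldh1a7 are close relatives that moved together. These are the last 120 bases before the start of each gene, at chr19:20601848-20601967 on the plus strand for Aldh1a1 (1 of its 2 RefSeq starts) and at chr19:20727557-20727676 on the minus strand for Aldh1a7, again GRCm38.p6. Of the 2 Aldh1a1 starts, the start whose window shared the longer identical run with Aldh1a7 was taken, and the other is not shown. Capitals mark the longest run that is identical in both.
Aldh1a1: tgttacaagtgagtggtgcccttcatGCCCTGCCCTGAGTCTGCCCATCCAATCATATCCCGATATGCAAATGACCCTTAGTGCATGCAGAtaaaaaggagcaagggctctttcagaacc
Aldh1a7: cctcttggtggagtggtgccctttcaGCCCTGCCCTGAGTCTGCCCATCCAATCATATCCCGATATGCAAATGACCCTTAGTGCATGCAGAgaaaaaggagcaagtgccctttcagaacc
The shared run is 65 bases long and spans -94 to -30 from the start in both genes, and 105 of the 120 aligned bases (87.5%) are the same. Whether the probe sets of these related genes also pick up each other's transcript was not tested.

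The deposited values were log2 expression between 2.572 and 14.168, with array medians from 5.93 to 5.99 and correlations of 0.988 to 0.993 between arrays of a group. The number of identical arrays was 0, and wild-type control array 1 stood apart from the other wild-type control arrays on the second principal component (12.1 against -17.7 and -16.2) and lay there among the wild-type quercetin arrays (8.14 to 16.9). Hepatocyte markers were bright in all libraries, with a mean log2 level over 15 genes between 12.29 and 12.54 per array. Because RNA came from whole liver, fewer cells of a type and less RNA per cell cannot be told apart. Pools of a group held different mice. The spread behind every p-value is the spread from pool to pool within groups, shared over the 4 groups. It was also moderated toward that of probe sets of similar level. For a single gene it can therefore be smaller or larger than its own pools show.

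Among the retinoid genes, 4 were higher in POR-null than in wild-type liver when both diets were averaged. Of these, 3 belong to different steps: clearance (Cyp26a1), retinal oxidation (Aldh1a1) and the receptor (Rarb). The other, Aldh1a7, is a relative of Aldh1a1 known for acting poorly on retinal. Aldh1a7 rose 2.20-fold, Cyp26a1 1.78-fold, Aldh1a1 1.45-fold and Rarb 1.38-fold. The genes of transport, esterification and retinal reduction, Rbp4, Lrat and Dhrs3, did not pass the test. The 4 calls among 7 probe sets stand beside 7.58% of all 22626 probe sets called in this comparison and 4.88% called higher (limma, Benjamini-Hochberg adjusted p under 0.05). For the same 4 genes all 6 POR-null arrays lay above all 6 wild-type arrays, which held for 1.92% of all probe sets. The 7 genes were chosen with earlier results of these data known, so these shares are a description and not a test.

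**Figure D1:**
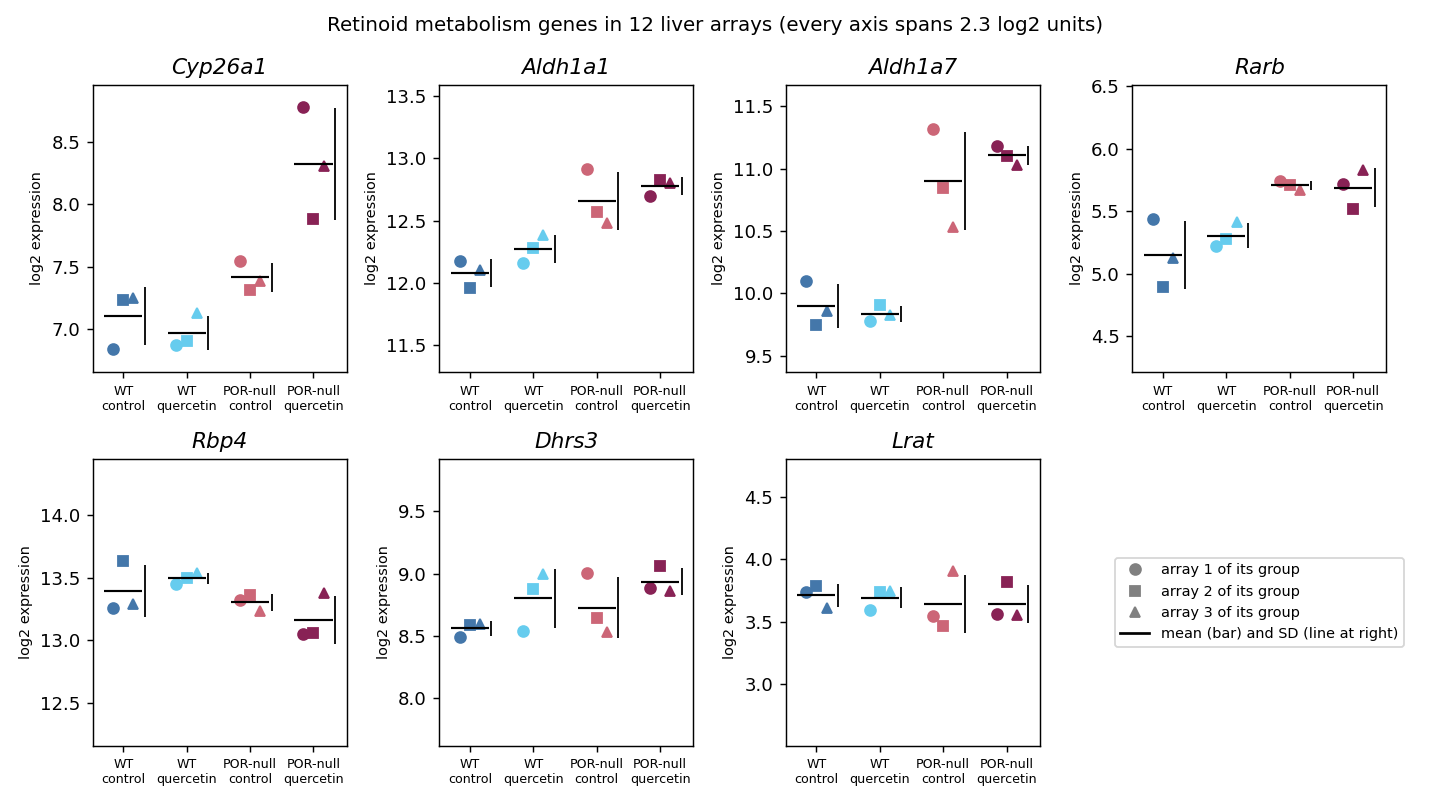
Log2 expression (y axis) of the 7 retinoid genes in each of the 12 liver arrays, by genotype and diet (x axis); points are arrays, bars are group means and the thin lines are 1 SD either side of the mean (n = 3). In Cyp26a1, Aldh1a1, Aldh1a7 and Rarb every POR-null array lies above every wild-type array, and for Cyp26a1 the POR-null quercetin arrays lie highest, between 7.89 and 8.78.

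Cyp26a1 encodes the hydroxylase that removes retinoic acid. Its log2 values were 6.84, 7.23 and 7.25 in wild-type control, 6.88, 6.91 and 7.13 in wild-type quercetin, 7.55, 7.31 and 7.39 in POR-null control, and 8.78, 7.89 and 8.30 in POR-null quercetin. The POR-null quercetin arrays were thus the 3 highest, the POR-null control arrays came next, and the arrays of both wild-type groups overlapped. Group means (SD, n = 3) ran from 6.97 ± 0.14 in wild-type quercetin through 7.11 ± 0.23 in wild-type control to 7.42 ± 0.12 in POR-null control, with POR-null quercetin highest at 8.32 ± 0.45. On the quercetin diet Cyp26a1 was 2.56-fold higher in POR-null, a log2 difference of 1.35 ± 0.18 (SE) with an adjusted p of 0.00213 in limma. On the control diet the difference was 0.31 ± 0.18 log2 units (95% confidence interval -0.07 to 0.69) and did not pass (adjusted p = 0.432), although the 3 POR-null arrays lay just above the 3 wild-type arrays. Averaged over diets it was 0.83 ± 0.13 (adjusted p = 0.0015).

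Aldh1a1 encodes the cytosolic retinal dehydrogenase that makes retinoic acid. Its log2 values were 12.17, 11.96 and 12.11 in wild-type control, 12.16, 12.28 and 12.38 in wild-type quercetin, 12.92, 12.57 and 12.48 in POR-null control, and 12.69, 12.83 and 12.80 in POR-null quercetin. The genotypes did not overlap on either diet, while the 2 diets overlapped within each genotype. The difference was 0.58 ± 0.11 (SE) log2 units on the control diet (1.49-fold, adjusted p = 0.0232) and 0.50 ± 0.11 on quercetin (1.42-fold, adjusted p = 0.0267, limma). Averaged over diets it was 0.54 ± 0.08 (adjusted p = 0.00113). The control-diet call was lost without wild-type control array 2 (adjusted p = 0.129) or 3 (0.0706) or POR-null control array 1 (0.102) or 2 (0.0530). The quercetin-diet call was lost without wild-type quercetin array 1 (0.114) or 2 (0.0986) or POR-null quercetin array 1 (0.0719), 2 (0.101) or 3 (0.0762). A fit of only the 2 groups compared also lost the control-diet call (0.120).

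Aldh1a7 is the rodent relative of Aldh1a1, known for acting poorly on retinal. Its log2 values were 10.10, 9.75 and 9.86 in wild-type control, 9.78, 9.91 and 9.82 in wild-type quercetin, 11.32, 10.85 and 10.53 in POR-null control, and 11.18, 11.10 and 11.03 in POR-null quercetin. The POR-null arrays lay between 10.53 and 11.32 and the wild-type arrays between 9.75 and 10.10, and POR-null control array 3 was the lowest of the POR-null arrays. Of the 7 genes it had the lowest adjusted p in each genotype comparison: the difference was 1.00 ± 0.15 (SE) log2 units on the control diet (2.00-fold, adjusted p = 0.0106), 1.27 ± 0.15 on quercetin (2.41-fold, adjusted p = 0.000936) and 1.13 ± 0.11 averaged over diets (adjusted p = 5.65e-05, limma). The control-diet call was lost without wild-type control array 2 (adjusted p = 0.0562) and in a fit of only the 2 groups compared (0.0840).

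Rarb encodes retinoic acid receptor beta, which retinoic acid itself induces in many tissues. Its log2 values were 5.44, 4.89 and 5.13 in wild-type control, 5.22, 5.28 and 5.42 in wild-type quercetin, 5.74, 5.71 and 5.67 in POR-null control, and 5.72, 5.52 and 5.83 in POR-null quercetin. The genotypes were separate on both diets, with the highest wild-type value at 5.44 and the lowest POR-null value at 5.52. The probe set was dim, with a mean above only 38.7% of probe sets. The test passed averaged over diets, at 0.47 ± 0.09 (SE) log2 units with an adjusted p of 0.00636 in limma. Within a diet it did not: the difference was 0.56 ± 0.13 on the control diet (adjusted p = 0.0530) and 0.38 ± 0.13 on quercetin (adjusted p = 0.141). Without wild-type control array 1, which held the highest wild-type value, the control-diet difference was 0.70 and passed (adjusted p = 0.0114).

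Within a diet, then, 2 of the 7 genes passed on the control diet (Aldh1a1 and Aldh1a7), where 1.16% of all probe sets were called and 0.822% were called higher. In a fit of only the control-diet groups 0 of the 7 passed, with 30 probe sets called in all. On quercetin 3 of the 7 passed (Cyp26a1, Aldh1a1 and Aldh1a7), where 2.33% of all probe sets were called and 1.75% called higher. The arrays of 4 genes did not overlap and were higher in POR-null on each diet, beside 8.04% of all probe sets on the control diet and 11.9% on quercetin. The comparisons of diet and of genotype share arrays, since each group enters 1 of each, and are not independent of each other.

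**Figure D2:**
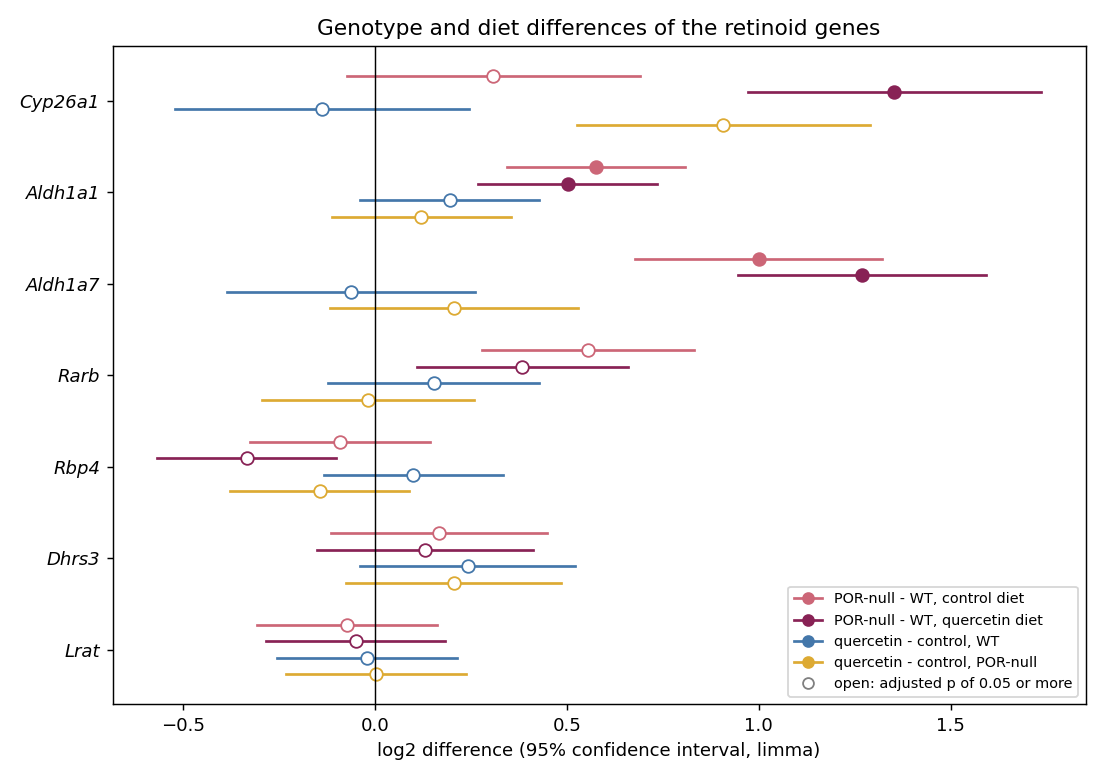
Log2 differences (x axis) of the 7 retinoid genes (y axis) for genotype within each diet and for diet within each genotype, with 95% confidence intervals from limma; filled points passed the adjusted p of 0.05. The filled points are Cyp26a1 on quercetin and Aldh1a1 and Aldh1a7 on both diets, all for POR-null against wild type, and the diet differences are all open.

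Rbp4 encodes the retinol carrier that hepatocytes secrete. Its log2 values were 13.26, 13.64 and 13.29 in wild-type control, 13.45, 13.50 and 13.54 in wild-type quercetin, 13.32, 13.36 and 13.23 in POR-null control, and 13.05, 13.06 and 13.38 in POR-null quercetin. On the control diet the genotypes overlapped, at -0.09 ± 0.11 (SE). On quercetin the 3 POR-null arrays lay below the 3 wild-type arrays, as they did for 13% of all probe sets, and the difference of -0.33 ± 0.11 did not pass (adjusted p = 0.129, limma). Averaged over diets it was -0.21 ± 0.08 (adjusted p = 0.111), and without POR-null quercetin array 3 it was -0.27 and passed (adjusted p = 0.0463). Ttr, the partner that carries RBP4 in plasma, was also on the lower side averaged over diets without passing, at -0.27 ± 0.08 (adjusted p = 0.0545).

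Dhrs3 encodes a reductase that turns retinal back into retinol. Its log2 values were 8.49, 8.59 and 8.60 in wild-type control, 8.54, 8.88 and 9.00 in wild-type quercetin, 9.00, 8.65 and 8.54 in POR-null control, and 8.88, 9.06 and 8.86 in POR-null quercetin. The groups overlapped in every comparison within a genotype or a diet. Averaged over diets the genotype difference was 0.15 ± 0.09 (SE; 95% confidence interval -0.05 to 0.35, adjusted p = 0.361, limma), and no left-out array gave a call.

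Lrat encodes the enzyme that esterifies retinol for storage, which in liver is a property of the stellate cells. Its log2 values lay between 3.61 and 3.79 in wild-type control, 3.59 and 3.74 in wild-type quercetin, 3.47 and 3.91 in POR-null control, and 3.55 and 3.81 in POR-null quercetin, so all 4 groups overlapped. The probe set was dim, with a mean below all but 6.65% of probe sets, which limits what it can show. The genotype difference averaged over diets was -0.06 ± 0.08 (SE; 95% confidence interval -0.23 to 0.10, adjusted p = 0.685, limma).

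Quercetin changed none of the 7 genes by the adjusted test in either genotype, and 0% of all probe sets were called in either. In wild type 1942 probe sets (8.58%) and in POR-null 1581 (6.99%) had an unadjusted p under 0.05 in limma. In wild type none of the 7 genes did. The Cyp26a1 difference in wild type was -0.14 ± 0.18 (SE; 95% confidence interval -0.52 to 0.25), and the other 6 lay between -0.06 (Aldh1a7) and 0.24 (Dhrs3). Without wild-type control array 1 the wild-type comparison called 151 probe sets, none of them a retinoid gene, and the Cyp26a1 difference was -0.27 (adjusted p = 0.533). In POR-null Cyp26a1 was 0.91 ± 0.18 log2 units higher on quercetin (1.88-fold, 95% confidence interval 0.53 to 1.29), with an unadjusted p of 0.000152 and an adjusted p of 0.446. Its 3 quercetin arrays lay above its 3 control arrays, as they did for 6.62% of all probe sets. Without POR-null quercetin array 1, the highest, the difference was 0.68, and without array 2, the lowest, it was 1.13, with adjusted p of 0.985 and 0.169. The other 6 genes lay between -0.14 (Rbp4) and 0.21 (Aldh1a7 and Dhrs3) in POR-null, and the diets overlapped for all 6. Averaged over both genotypes 0% of all probe sets were called and 2079 (9.19%) had an unadjusted p under 0.05, among them Cyp26a1 (0.39 ± 0.13) and Dhrs3 (0.22 ± 0.09), whose adjusted p was 0.395 and 0.497 in limma.

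The test of whether quercetin acted differently in the 2 genotypes, the interaction, passed for none of the 7 genes and for 0% of all probe sets, of which 1397 (6.17%) had an unadjusted p under 0.05. For Cyp26a1 the quercetin difference in POR-null exceeded that in wild type by 1.05 ± 0.25 log2 units (95% confidence interval 0.50 to 1.59, unadjusted p = 0.00095, adjusted p = 0.671, limma). For the other 6 genes the interaction lay between -0.24 (Rbp4) and 0.27 (Aldh1a7), and each interval held 0.

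**Figure D3:**
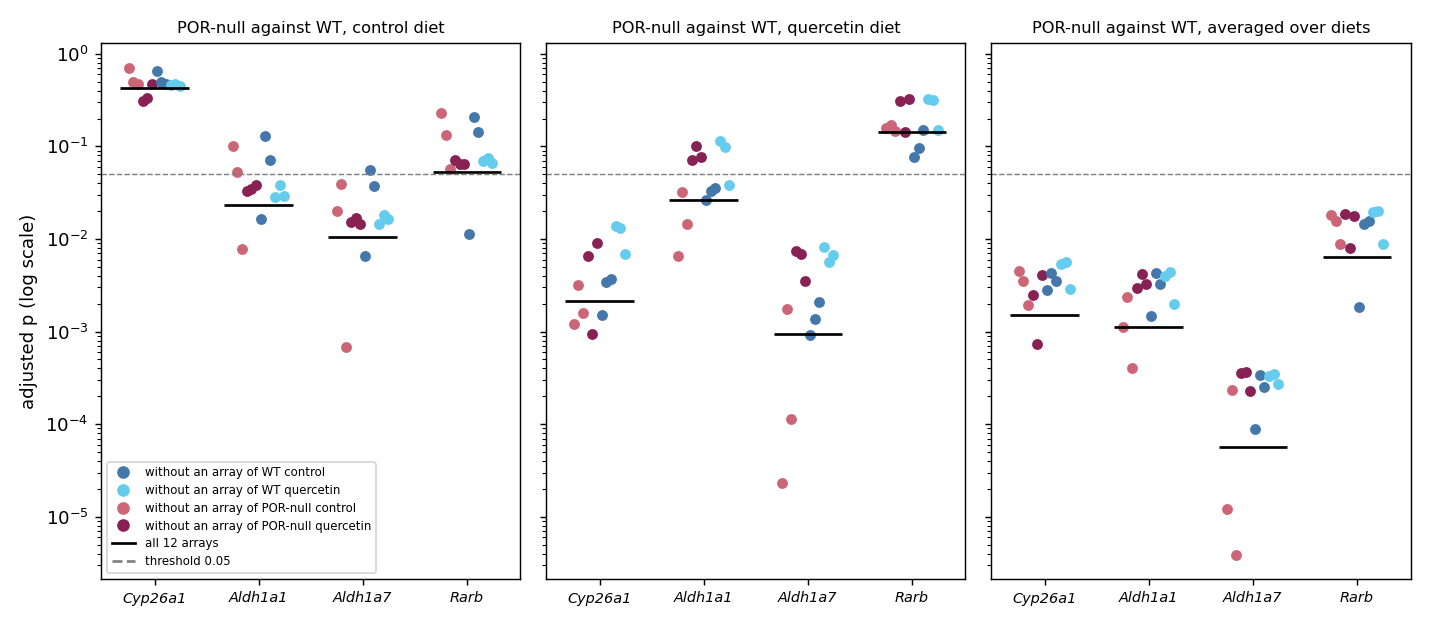
Adjusted p from limma (y axis, log scale) of Cyp26a1, Aldh1a1, Aldh1a7 and Rarb (x axis) for POR-null against wild type, with each of the 12 arrays left out in turn (points, coloured by the group of the array left out) and with all 12 (bars); the dashed line is 0.05. Averaged over diets all points of the 4 genes lie below the line, while the Aldh1a1 points lie on both sides of it within either diet.

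The rest of the pathway was read from lists of related genes, each gene by its brightest probe set, for POR-null against wild type averaged over diets. Over all 12393 genes 5.08% were higher and 2.86% lower, with a median log2 difference of -0.02. Of 27 measured alcohol and aldehyde dehydrogenases, reductases and related enzymes, 3 rose and 4 fell, with a median of -0.05. Those that rose were the reductase Dhrs7 (0.59 ± 0.07, SE, adjusted p = 0.000332), the retinol dehydrogenase Rdh16 (0.48 ± 0.09) and the aldehyde dehydrogenase Aldh1b1 (0.47 ± 0.11). Those that fell were Hsd17b6 (-1.40 ± 0.25), a short-chain dehydrogenase of steroid and retinol substrates, Rdh9 (-0.77 ± 0.16), the aldehyde oxidase Aox3 (-0.61 ± 0.14) and the alcohol dehydrogenase Adh4 (-0.48 ± 0.11). Retinol and retinal oxidising enzymes were therefore found in both directions, and Aldh1a2, another retinal dehydrogenase, was at -0.15 ± 0.05 without passing (adjusted p = 0.107).

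Hsd17b6 differed most among these enzymes. Its log2 values lay between 9.06 and 9.36 in wild-type control, 8.92 and 9.52 in wild-type quercetin, 7.04 and 8.92 in POR-null control, and 7.19 and 7.64 in POR-null quercetin. Within the control diet the genotypes did not overlap, but the POR-null control arrays were widely spread, with an SD of 1.04.

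Of 15 measured genes of carotenoid cleavage, retinyl ester synthesis and ester hydrolysis, 3 rose and 1 fell, with a median of 0.11. The carboxylesterase Ces2a (0.76 ± 0.12, SE), the lipoprotein lipase Lpl (0.74 ± 0.13) and the triglyceride lipase Pnpla2 (0.39 ± 0.09) rose, and the carboxylesterase Ces1f fell (-0.55 ± 0.15). The ester synthases Dgat1 and Dgat2 were at -0.10 ± 0.08 and 0.03 ± 0.06 without passing. Of 11 binding and transport proteins 1 rose, Fabp5 (0.88 ± 0.16), a fatty acid binding protein that can also carry retinoic acid, and 0 fell.

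Of 14 measured nuclear receptors and cofactors 0 rose and 1 fell, the corepressor Nr0b2 (-1.11 ± 0.15, SE, adjusted p = 0.000666, limma). The differences of 13 of the 14 lay below 0 and that of 1 above, with a median of -0.11. Of all genes, 43.2% lay above 0, with a median of -0.02. The mean of the list per array lay between 6.385 and 6.503 in wild type and 6.196 and 6.343 in POR-null. The receptors Rara (-0.13 ± 0.08), Rarg (-0.04 ± 0.09) and Rxra (-0.18 ± 0.07) did not pass. Of 22 further genes known to respond to retinoic acid 1 rose, the transglutaminase Tgm2 (0.38 ± 0.08), and 2 fell, Pck1 (-0.36 ± 0.10) and Hnf4a (-0.31 ± 0.07), with a median of -0.01. Among these lists no gene passed for quercetin in either genotype.

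**Figure D4:**
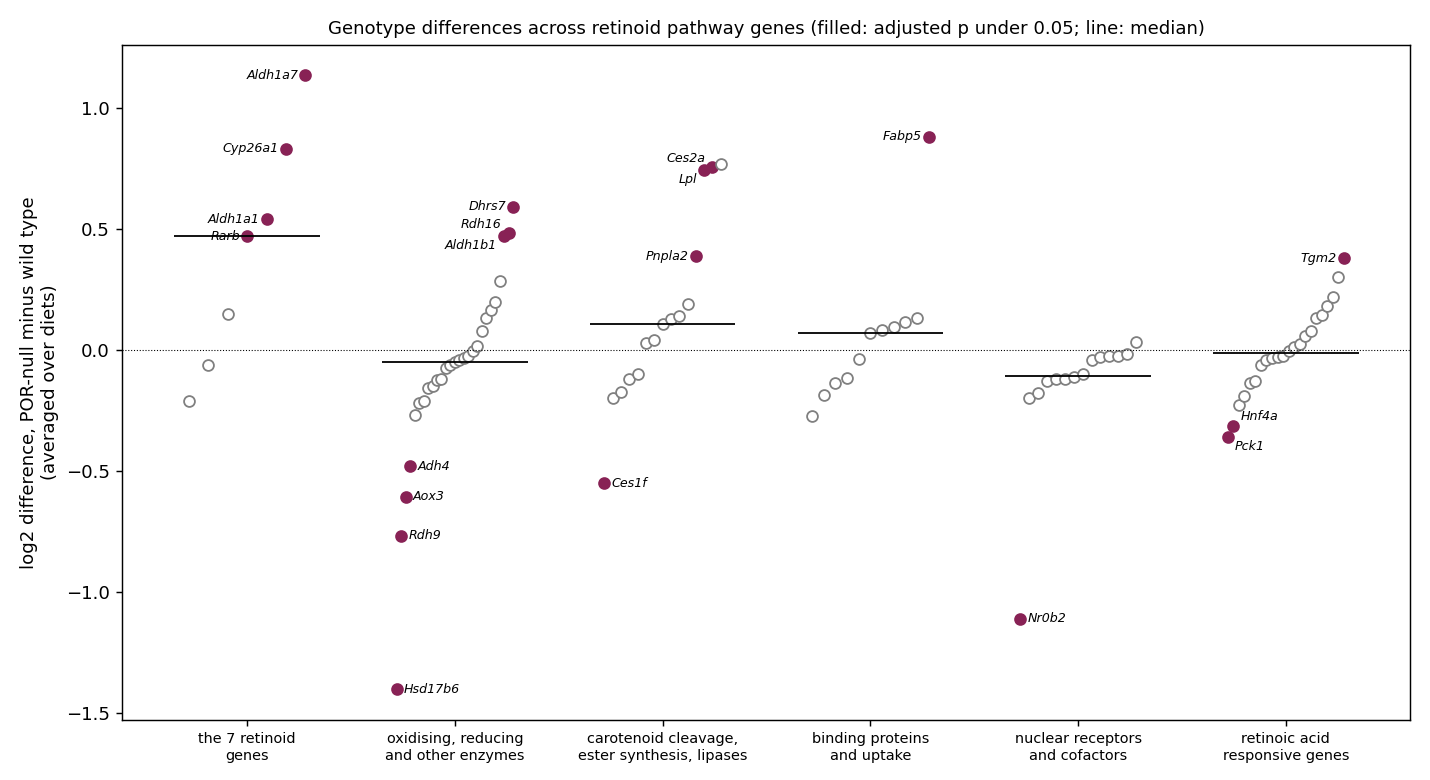
Log2 difference of POR-null minus wild type averaged over diets (y axis) for the 7 retinoid genes and 5 lists of related genes (x axis); each point is 1 gene, filled where the adjusted p was under 0.05, and bars are list medians. The lists of enzymes, ester metabolism, binding proteins, receptors and responsive genes hold 3, 3, 1, 0 and 1 genes that rose and 4, 1, 0, 1 and 2 that fell.

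A DR5 match was held by 31 RefSeq genes including Cyp26a1 and Rarb, and 6 of the 31 were measured. Besides these 2 genes, the measured ones were Blvrb (-0.26 ± 0.08, SE), Hbb-y (-0.14 ± 0.07), Ppbp (0.18 ± 0.09) and Tnfsf13b (0.09 ± 0.09) for genotype averaged over diets, none of which passed. A match of these letters does not show that a receptor binds there in liver.

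Aldh1a1 and Aldh1a7 are also known as genes that the xenobiotic receptor CAR can induce. In a list of 27 measured CAR and PXR targets without these 2 genes, 18 rose in POR-null liver averaged over diets and 0 fell, with a median log2 difference of 0.53. Of all genes, 5.08% rose and 2.86% fell, with a median of -0.02. Cyp2b10, the standard CAR target, was higher by 4.36 ± 0.28 (SE, adjusted p = 1.34e-06, limma). Ces2a, named above among the genes of ester hydrolysis, is also in this list. The mean of the list per array lay between 8.69 and 8.80 in both wild-type groups, 9.15 and 9.83 in POR-null control, and 9.69 and 9.71 in POR-null quercetin. Its part in the Aldh1a1 and Aldh1a7 differences was not tested.

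Markers of other liver cells were read for the same comparison, in which 5.08% of all genes rose and 2.86% fell. Of 13 measured Kupffer cell and macrophage markers 4 rose (Cd5l, Mpeg1, Lyz2 and C1qa) and 0 fell. The differences of 10 of the 13 lay above 0 and those of 3 below. Their mean per array lay between 7.06 and 7.51 in wild-type control, 7.23 and 8.00 in wild-type quercetin, 7.55 and 7.86 in POR-null control, and 7.66 and 7.84 in POR-null quercetin. The 6 POR-null arrays thus lay above all wild-type arrays except wild-type quercetin array 3, the highest of the 12. Of 23 stellate cell and matrix markers 1 rose (Sparc, 0.39 ± 0.09, SE) and 0 fell, with means per array from 6.33 to 6.52 in wild type and 6.42 to 6.62 in POR-null. Of 15 hepatocyte markers 0 rose and 3 fell (Pck1, Hnf4a and Tdo2). Pck1 and Hnf4a are also in the list of retinoic acid responsive genes. The part of these cell types in the retinoid gene differences was not tested.

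Exocrine pancreas markers, a sign of tissue carried along at dissection, were uneven between arrays, with means over 13 genes from 6.08 to 8.11 in the other 3 groups and 6.58, 7.28 and 9.34 in POR-null quercetin arrays 1, 2 and 3. Without array 3 the Cyp26a1 genotype difference on quercetin was 1.36 (adjusted p = 0.00895, limma), against 1.35 with it. That fit kept wild-type quercetin array 3, with a marker mean of 7.83. The part of the pancreas markers in the retinoid gene differences was not tested. Signs of RNA integrity were read from 4 control transcripts as the log2 value of their 3′ minus that of their 5′ probes. For the transferrin receptor it lay between 0.99 and 1.28 in wild type and 1.17 and 1.37 in POR-null. Its group means were 1.05 and 1.18 in wild type and 1.28 and 1.28 in POR-null. For pyruvate carboxylase it lay between 1.72 and 2.58 in wild type and 1.90 and 2.46 in POR-null. The group means there were 2.21 and 2.35 in wild type and 2.15 and 2.01 in POR-null. The genotypes also overlapped for actin (0.79 to 1.00 and 0.83 to 1.02) and Gapdh (-0.23 to -0.14 and -0.22 to -0.12). The part of RNA integrity in the genotype differences was not tested.

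Genes whose levels followed those of a retinoid gene most closely over the 12 arrays were taken from 10335 brighter single-symbol probe sets, with Pearson r as a description. The 12 points share the genotype and diet groups. For Cyp26a1 they were Lpgat1 (0.98), Tgds (0.96) and Zmpste24 (0.95), for Aldh1a1 Slc47a1 (0.98), S100a10 (0.97) and Tceal8 (0.97), for Aldh1a7 Lgals1 (0.99), Gstm2 (0.98) and Cd36 (0.98), and for Rarb Ablim1 (0.97), Mfsd1 (0.96) and Lman2 (0.95). The highest r was lower for the genes that did not pass: 0.89 for Rbp4 (Tyro3), 0.87 for Lrat (Sh2b2) and 0.93 for Dhrs3 (Pigk).

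In the RefSeq gene order 4 of the 7 genes lie on chromosome 19. Aldh1a1 and Aldh1a7 are next to each other among the measured genes, and of the 10 measured genes nearest to each of them, only the other one passed in any of the 3 genotype comparisons. Of the 10 nearest to Cyp26a1, which include Rbp4, the transcription factor gene Hhex passed averaged over diets and was lower in POR-null (-0.64 ± 0.18, SE, adjusted p = 0.0463, limma). Around Rarb, Il3ra (0.27 ± 0.06) and Nkiras1 (0.50 ± 0.13) were higher and Oxsm (-0.31 ± 0.08) lower averaged over diets. Near genes that did not pass, Tdo2 (-0.26 ± 0.07) and Asic5 (-0.47 ± 0.10) around Lrat were lower and Tmem51 (0.44 ± 0.10) near Dhrs3 was higher. Over all 12393 genes 5.08% were higher and 2.86% lower in that comparison.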

How the data were processed

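The authors' deposited log2 values of 12 liver arrays were used as given. MAS5 and RMA appear in the submitters' processing notes with no version or role, and the background correction is not given in the sources used here. The members and gene lists were chosen with earlier results of these data known.

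All 22626 probe sets other than the 64 controls were fitted with limma 3.58.1 (R 4.3.3) with 1 mean per group over 12 arrays, moderated variances with an intensity trend, two-sided tests and Benjamini-Hochberg adjustment at 0.05. Differences are log2 means with moderated SE. Array number limits precision. Genes of lists used their brightest single-symbol probe set (12393 genes). All 7 members were named, and so were the genes of the retinoid and liver cell lists that passed averaged over diets. In the account of CAR and PXR targets only Cyp2b10 and Ces2a were named, not every gene that passed. Further list members, such as Rara and Dgat1, were named after their values were seen. Motif and sequence comparisons used RefSeq start windows (GRCm38.p6). The fit was tested on simulated data. Alternatives were quantile normalization, leaving out the dimmest 40% of probe sets, other variance priors, array weights, a replicate block, fewer groups, 1 value per gene and leaving out arrays. The labels do not say whether equal pool numbers pair samples. Residuals of 5 of 18 same-numbered pairs correlated above 0.1, and the median r was 0.045, against -0.011 for other pairs.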

Additional observations from a re-analysis of the deposited data

How the results depend on the processing

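Averaged over diets, Cyp26a1, Aldh1a1, Aldh1a7 and Rarb kept their direction and passed with each array left out and under every alternative run in which they were tested. Rarb, being dim, was not tested without the dimmest 40% of probe sets, where 3 retinoid genes passed. Fitting only the groups compared left 0 retinoid genes and 30 probe sets passing on the control diet, against 2 and 262, with adjusted p of 0.120 for Aldh1a1 and 0.0840 for Aldh1a7. Rarb passed there with a robust variance prior (0.0480) and array weights (0.0345). Without wild-type control array 1 and POR-null quercetin array 3, an alternative added after seeing the data, Rarb passed on the control diet (0.0154), Rbp4 on quercetin (-0.44, 0.0465) and averaged (-0.30, 0.0256), and Aldh1a1 was lost on quercetin (0.0731).

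The number of probe sets passing moved far more. For quercetin in wild type it was 0, but 1 without the dimmest 40% or without a variance trend, 2 with the replicate block and 75 without the 2 arrays above. That setting gave 1 for quercetin in POR-null and averaged, 4 for the interaction and 642 for genotype on the control diet. One value per gene gave 110 on the control diet and 1061 averaged, over fewer features. On quercetin the genotype count of 527 became 1052 with array weights and 950 with only the groups compared. With each array left out in turn the counts ran from 0 to 151 for quercetin in wild type, 0 to 4 in POR-null and 0 to 24 averaged, 35 to 756 for genotype on the control diet, 127 to 680 on quercetin and 991 to 2128 averaged, and 0 to 1 for the interaction. Leaving out wild-type control array 1 gave the highest count in each comparison except quercetin in POR-null (POR-null control array 1) and genotype on quercetin (POR-null control array 3), and the lowest genotype counts came without POR-null control array 1 or, on quercetin, POR-null quercetin array 1. The retinoid genes passing then numbered 0 to 3 on the control diet, 2 to 3 on quercetin and 4 to 5 averaged.

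Signs turned only for differences that passed under no setting. For quercetin in wild type, leaving out arrays gave -0.14 to 0.035 for Aldh1a7 (0.035 also without the 2 arrays above) and -0.072 to 0.029 for Lrat. In POR-null it gave -0.084 to 0.14 for Lrat and -0.089 to 0.066 for Rarb (0.0076 with quantile normalization). Averaged over genotypes it gave -0.020 to 0.18 for Aldh1a7, -0.077 to 0.038 for Rbp4 and -0.052 to 0.058 for Lrat (0.014 with array weights, 0.020 without the 2 arrays). For genotype it gave -0.16 to 0.029 for Rbp4 and -0.21 to 0.014 for Lrat on the control diet, and -0.0023 to 0.23 for Dhrs3 on quercetin. For the interaction it gave -0.16 to 0.057 for Aldh1a1, -0.064 to 0.16 for Lrat and -0.17 to 0.10 for Dhrs3 (0.034 without the 2 arrays). The cause of these changes was not tested.

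The replicate block changed no call of a retinoid gene, with 0, 2, 3 and 4 of them passing as without it for the interaction, the control diet, quercetin and their average. Not run were the planned choices of background correction and of scan batch, since no scanner values or batch labels were used, and of a pseudocount, since values were already logarithmic.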
